A study of Homo sapiens with 18 samples.

Results

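The members described here are the genes of oxidative phosphorylation, taken from a table of normalized RNA-seq counts by name and level. Members were chosen by name and selected on their mean level, and not on any difference between groups. Rows were kept when the symbol was that of a mitochondrial-encoded subunit or began with NDUF, UQCR, SDH, COX4 to COX8 or ATP5 in the form used for respiratory chain and ATP synthase genes, and when the mean over the 18 libraries was at least 50. This gave 91 members of 55765 rows: 13 encoded in mitochondrial DNA, whose symbols start with MT-, and 78 encoded in the nucleus. Of the nuclear members, 73 encode a subunit, with 34 in complex I, 4 in complex II, 8 in complex III, 12 in complex IV and 15 in complex V. The other 5 encode none: ATP5S, ATP5SL, COX7A2L, the pseudogene COX6A1P2 and the antisense RNA NDUFA6-AS1. The name rule matched 216 rows in all, and 125 of them lay under the minimum level.

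The cells were G401, a malignant rhabdoid tumour line. The control, labelled WT, had intact RB1 and had been edited at AAVS1, a site used as a neutral target. E1 and F2 are RB1 knockout clones made by CRISPR/Cas9, with both alleles deleted, and each is a single clone. For 11 days the 3 lines were grown with tazemetostat at 10 µM or with the same volume of its solvent, DMSO. Tazemetostat blocks EZH2, an enzyme that methylates histone H3 at genes kept silent. Each of the 6 groups had 3 biological replicates, so that 18 libraries of poly(A) RNA were measured. The tumour suppressor RB1 stood at 2694 ± 132 normalized counts in WT with DMSO, at 648 ± 138 in E1 and at 839 ± 30.5 in F2 (SD, n = 3). SMARCB1, the gene whose loss defines rhabdoid tumours, had 0 reads in all 18 libraries.

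Oxidative phosphorylation is carried out by 5 protein complexes in the inner mitochondrial membrane. Complex I takes electrons from NADH and complex II from succinate, complex III passes them to cytochrome c, complex IV hands them to oxygen, and complex V uses the resulting proton gradient to make ATP. Mitochondrial DNA encodes the most hydrophobic subunits of complexes I, III, IV and V, and complex II is wholly nuclear-encoded. The mitochondrial genes are transcribed together as long RNAs that are cut into messengers, whereas each nuclear gene has a promoter of its own. NRF1, GABPA of the ETS family, YY1 and coactivators such as PGC-1α are known regulators of the nuclear genes, and E2F factors, which RB1 restrains, have also been found at some of these promoters.

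Promoter bases of 3 nuclear members are shown as examples of 3 of the patterns of calls that nuclear members had under tazemetostat. COX8A, a structural subunit of complex IV, was called lower in all 3 lines, NDUFB10, an accessory subunit of complex I, was called higher in WT and in neither clone, and COX7B, a small subunit of complex IV, was called lower in F2 alone. The sequences are from RefSeq on GRCh38.p14, on the strand of the gene, 5′ to 3′, and end before the first annotated exon of GENCODE v29. COX8A lies at chr11:63974370-63974606 on the + strand, and the capitals mark the E2F letters TTTGGCGC as read on the other strand. NDUFB10 lies at chr16:1959288-1959507 on the + strand and COX7B at chrX:77899218-77899437 on the + strand, and neither stretch holds any of the letters searched.
COX8A: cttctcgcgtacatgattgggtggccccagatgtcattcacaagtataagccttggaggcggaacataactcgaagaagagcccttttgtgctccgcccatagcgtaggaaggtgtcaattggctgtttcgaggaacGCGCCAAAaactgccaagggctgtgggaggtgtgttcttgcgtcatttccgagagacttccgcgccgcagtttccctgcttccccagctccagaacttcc
NDUFB10: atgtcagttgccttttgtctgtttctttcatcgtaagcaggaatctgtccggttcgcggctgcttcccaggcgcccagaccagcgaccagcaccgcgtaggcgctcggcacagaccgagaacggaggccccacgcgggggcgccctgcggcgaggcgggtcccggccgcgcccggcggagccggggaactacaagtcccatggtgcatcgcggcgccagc
COX7B: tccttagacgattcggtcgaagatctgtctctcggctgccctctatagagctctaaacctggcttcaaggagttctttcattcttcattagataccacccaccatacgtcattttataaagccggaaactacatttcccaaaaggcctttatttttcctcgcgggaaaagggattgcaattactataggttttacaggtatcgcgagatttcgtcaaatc

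RefSeq windows of the 250 bases before the start were found for 60 of the 73 nuclear subunits, in 72 windows, and the letters were searched on both strands. The NRF1 motif, GCGC on both sides of any 2 bases, was in 19.44% of these windows, against 7.16% of all 35116 windows. The ETS letters ACTTCCGG were in 13.89% against 3.42%, the YY1 motif in 2.78% against 0.37%, the E2F letters TTTGGCGC in 2.78% against 0.55% and the E-box CACGTG in 8.33% against 6.34%. Each 2.78% stands for 2 of the 72 windows, and both YY1 windows belong to 1 gene, ATP5J. None of the 5 motifs contains another, and a window could hold several. The window of SDHA, the flavoprotein of complex II, held GCGCAGGCGC at 4 places, that of NDUFB10 held GCGCCAGCGC past the printed bases, and that of COX8A held the ETS letters past them as well. A match is a run of letters and was not tied to binding in these cells.

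Library totals ran from 25709489 to 39314860 reads and size factors from 0.812 to 1.145. Of 8 markers of immune, endothelial, epithelial and liver cells, 7 were in the table, none was at 0 in every library, and the most reads any of them had in a library was 29 (CDH5). Their summed level was 24.5 to 32.2 normalized counts in WT with DMSO and 35.5 to 54.2 with tazemetostat, 13.4 to 23.2 and 28.0 to 36.2 in E1, 27.0 to 33.8 and 48.5 to 61.6 in F2, and their part in the results was not tested. Replicates 2 and 3 of E1 with DMSO stood apart. The 13 mitochondrial members took 2.95% of reads in the former and 4.30% in the latter. In the latter, the deviation of the tested genes from the group mean went with GC content at r = -0.61 over 14215 genes, and in the former at r = 0.45. E1 with tazemetostat was also split, with r = 0.43 in replicate 1 and -0.36 in replicate 2, and mitochondrial shares of 5.18% and 4.02%. Counts of calls for E1 that moved by over 1.5 times without replicate 2 or 3 of the DMSO group are given in both ways. The read shares and the counts by complex are given with all 3 libraries.

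Mitochondrial transcripts were the more abundant part of the set. Per kb of exon, the mitochondrial members had mean levels of 9902 (MT-ND6) to 316797 (MT-CO2) normalized counts, with a median of 96178. The nuclear subunits ran from 30.6 (NDUFA9) to 11573 (ATP5B, the catalytic β subunit of ATP synthase), with a median of 1748. On this scale all but 1 of the 13 mitochondrial genes lay above every nuclear subunit. Exon length here joins the exons of every annotated transcript of a gene, which can lower the values of nuclear genes. For NDUFA9 it was 8642 bases, 1589 of them shared with other genes on the same strand. Several isoforms known from other tissues were absent or nearly so: COX4I2 and COX7A1 had 0 reads in all 18 libraries, COX6A2 and COX7B2 at most 1 read and COX8C at most 2. Among the matched rows left out, the highest were the complex I gene NDUFV2 at a mean of 44.4 and its pseudogene NDUFV2P1 at 35.2, and the lowest kept were COX6A1P2 at 92.2 and NDUFA6-AS1 at 118.

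The mitochondrial share of reads was higher with tazemetostat in WT and E1 and lower in F2, while the nuclear share was lower in each line. In WT the 13 mitochondrial members took 3.67 ± 0.20% of reads with DMSO and 4.82 ± 0.58% with tazemetostat (SD, n = 3). The share in E1 was 3.63 ± 0.67% and 4.54 ± 0.59%, and its libraries overlapped, at 2.95 to 4.30% with DMSO and 4.02 to 5.18% with tazemetostat. F2 went the other way, from 4.55 ± 0.19% to 3.91 ± 0.12%. The nuclear members took 0.901% of reads in WT with DMSO and 0.700% with tazemetostat, 0.852% and 0.679% in E1, and 0.853% and 0.620% in F2. On the log2 scale the mean of the mitochondrial members less that of the nuclear members was 4.62 ± 0.12 and 5.21 ± 0.22 in WT, 4.65 ± 0.42 and 5.20 ± 0.22 in E1, while F2 had 4.90 ± 0.09 and 5.06 ± 0.08. The DMSO and tazemetostat libraries of WT did not overlap in this difference, those of F2 did not either, and those of E1 overlapped, since DMSO replicate 3 (4.982) lay above tazemetostat replicate 2 (4.975). In these bulk libraries, fewer cells of a type and less RNA per cell cannot be told apart.

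**Figure D1:**
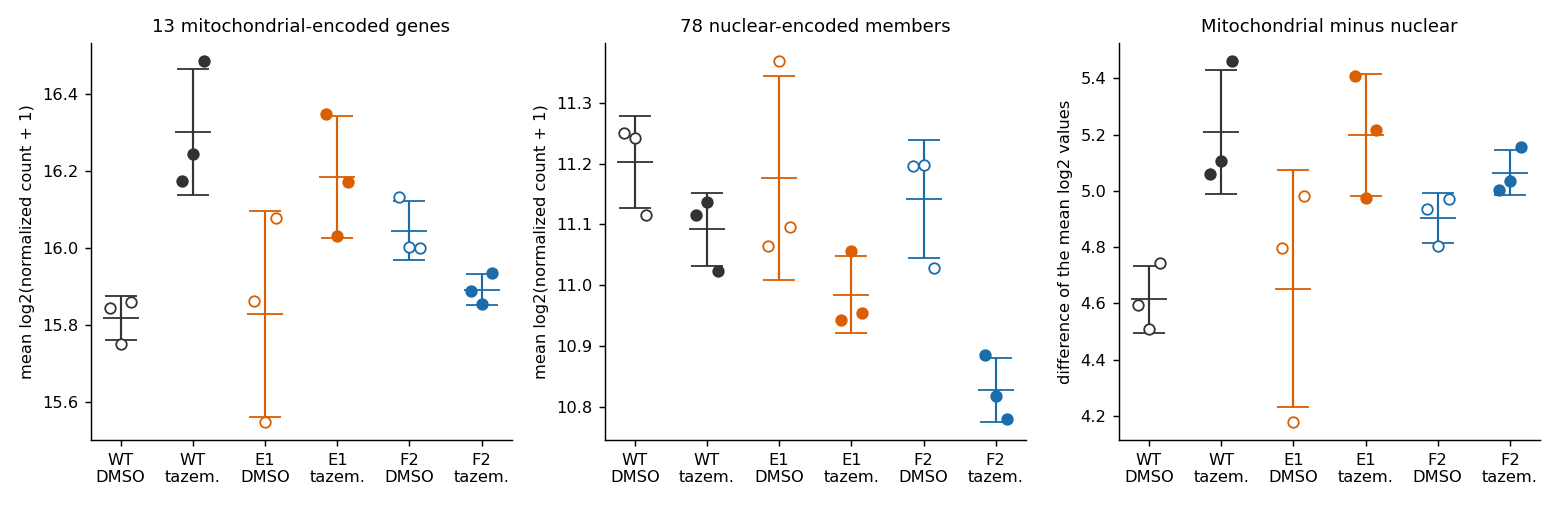
Mean log2(normalized count + 1) of the 13 mitochondrial members, of the 78 nuclear members and their difference in each of the 18 libraries, with open points for DMSO, filled points for tazemetostat and the mean ± SD of 3 libraries. The mitochondrial mean of WT went from 15.82 to 16.30, whereas the nuclear mean of F2 went from 11.14 to 10.83.

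Changes of single genes were tested with limma on log2(normalized count + 1), over 16154 genes with a mean of at least 10, and a gene was called when its Benjamini-Hochberg adjusted p was under 0.05. All 91 members passed that level. In WT, tazemetostat raised 12 of the 13 mitochondrial members and lowered 0, where 64.2% of all tested genes were called, 34.8% higher and 29.4% lower. The median log2 change of the 13 was 0.50, against 0.03 over all tested genes. In E1, 7 rose and 0 fell (46.8% of all genes called, 27.1% higher and 19.7% lower), with a median of 0.33 against 0.02. In F2, 0 rose and 1 fell (52.2% of all genes called, 29% and 23.2%), with a median of -0.18 against 0.02.

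MT-ND5, a proton-pumping subunit of complex I, changed most in WT. Its normalized counts were 66210, 64044 and 72006 with DMSO and 124150, 128950 and 149004 with tazemetostat, a log2 change of 0.99 ± 0.13 (SE, adjusted p = 3.64e-06). In E1 it was 67583, 53082 and 84083 with DMSO and 117185, 86684 and 98499 with tazemetostat, a change of 0.58 ± 0.13 (adjusted p = 0.00166). In F2 it was 90252, 83384 and 87421 with DMSO and 78953, 77392 and 81035 with tazemetostat. The 2 conditions did not overlap in any of the 3 lines, and the F2 values moved down, without passing the test.

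MT-CO2, a catalytic core subunit of complex IV, went from 200344, 161048 and 163418 to 246261, 255580 and 289022 in WT, a log2 change of 0.60 ± 0.14 (adjusted p = 0.000976). E1 gave the same size of change, from 170478, 137149 and 190597 to 267130, 230685 and 249546 (0.60, adjusted p = 0.00149). In F2 the values were 258734, 249248 and 200928 with DMSO and 227430, 194311 and 208495 with tazemetostat, which overlapped. MT-CO1, the subunit that binds oxygen, changed by 0.50 in WT and by 0.43 in E1 (adjusted p = 0.008 and 0.0293), and its E1 groups overlapped.

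MT-ND3 and MT-ND6 departed from the other mitochondrial genes. MT-ND3, a small membrane subunit of complex I, rose in WT from 30608, 29490 and 27267 to 44669, 45991 and 47013, a log2 change of 0.66 ± 0.08 (adjusted p = 1.1e-06). In E1 it stood at 32711, 31790 and 30580 with DMSO and at 29211, 33736 and 33720 with tazemetostat, a change of 0.02 ± 0.08 (adjusted p = 0.857). MT-ND6 is the only protein gene on the other strand of mitochondrial DNA and had the lowest level of the 13. It was the mitochondrial member not called in WT, at 4365, 4895 and 6672 with DMSO and 3469, 3807 and 5496 with tazemetostat (-0.32 ± 0.25, adjusted p = 0.269). It was not called in E1 or F2. The libraries were made from poly(A) RNA, and the part of that step in the values of MT-ND6 was not tested.

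The remaining mitochondrial genes had log2 changes in WT between 0.32 (MT-CO3, adjusted p = 0.0321) and 0.61 (MT-ND2, adjusted p = 1.61e-05), and all of them were called. In E1, MT-ATP6 and MT-ATP8 of ATP synthase, MT-CYB of complex III and MT-ND2 were also called, at 0.53, 0.47, 0.40 and 0.33. MT-CO3, MT-ND1, MT-ND4 and MT-ND4L had changes of 0.29, 0.23, 0.28 and 0.19 in E1 and were not called. In F2 the 1 call was MT-ND1, lower by 0.36 on the log2 scale (adjusted p = 0.0191), with values of 112516, 103673 and 101513 in DMSO and 85743, 79081 and 82302 in tazemetostat. MT-ATP6 and MT-ATP8 overlap by 46 bases and MT-ND4 and MT-ND4L by 7, so reads in those stretches can belong to either gene.

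**Figure D2:**
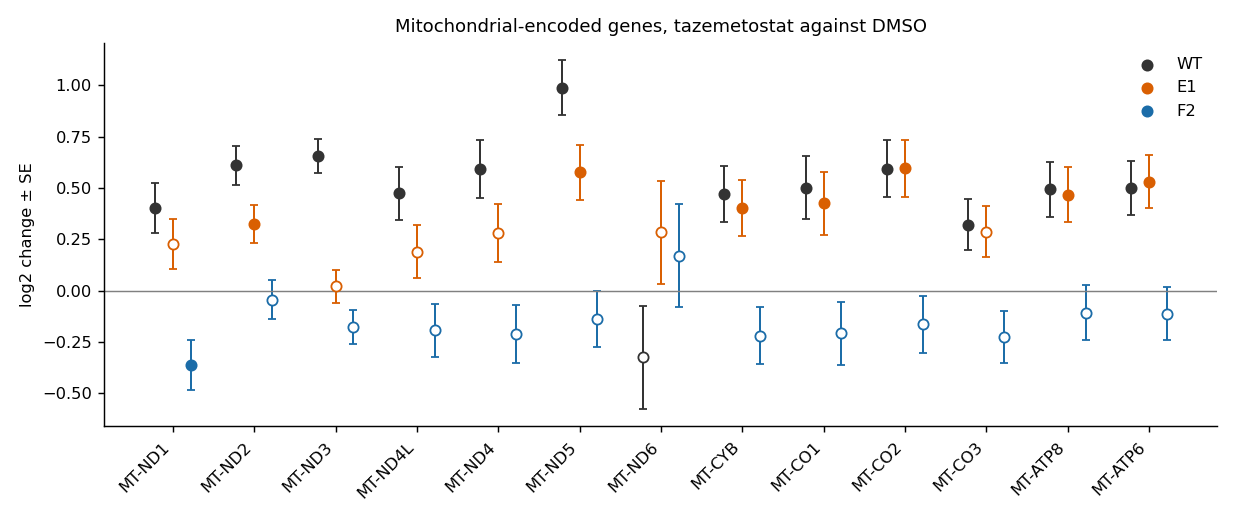
Log2 change ± SE of each of the 13 mitochondrial members under tazemetostat in WT, E1 and F2, with filled points for an adjusted p under 0.05. The WT points lie above 0 apart from MT-ND6 (-0.32), and the F2 points lie between -0.36 (MT-ND1) and 0.17 (MT-ND6).

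These mitochondrial counts depended on a few libraries and on the scaling. Without replicate 2 of E1 with DMSO 4 members were called in E1, and without replicate 3 of that group 11 were called. When every library was scaled to the same total, MT-CO3 and MT-ND1 were not called in WT (adjusted p = 0.24 and 0.0834), which left 10 higher and 0 lower with a median of 0.35, and MT-CO1 was not called in E1 (adjusted p = 0.0585). That scaling moved the median of all tested genes in WT from 0.03 to -0.12. MT-ND1 in F2 was not called without replicate 1 of F2 with DMSO or without replicate 2 of F2 with tazemetostat.

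The responses of the lines were then compared with each other, as the change in a clone less the change in WT. The clones share the WT libraries in this comparison. For F2 less WT, 12 of the 13 mitochondrial members were called lower and 0 higher, where 26.9% of all genes were called, 13.2% lower and 13.7% higher, with a median of -0.69. MT-ND5 differed most, at -1.13 ± 0.19 (adjusted p = 0.000235), followed by MT-ND3 at -0.83 ± 0.12 (adjusted p = 2.9e-05). MT-ND6 was not called (0.49 ± 0.36). Under the same total 9 of the 13 were called lower, and 8 without replicate 2 of F2 with tazemetostat or without replicate 3 of WT with tazemetostat.

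For E1 less WT, 1 mitochondrial member was called, MT-ND3 at -0.64 ± 0.12 (adjusted p = 0.000317), where 35.4% of all genes were called, 18.2% lower and 17.2% higher. Without replicate 2 of E1 with DMSO the count was 4. For E1 less F2, 6 mitochondrial members were called higher and 0 lower (14.8% of all genes called, 6.16% and 8.6%): MT-ATP6, MT-ATP8, MT-CO2, MT-CYB, MT-ND1 and MT-ND5, with differences of 0.57 to 0.76. That count ran from 2 to 11 as single libraries were left out. The clones, both RB1 knockouts, differed from each other in the response of these 6 genes.

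More nuclear members were called lower than higher in each line. In WT 7 were called higher and 27 lower, in E1 1 and 24, and in F2 0 and 47, with median log2 changes of -0.08, -0.15 and -0.31. The shares of all tested genes called lower were 29.4%, 19.7% and 23.2%, and the shares called higher were 34.8%, 27.1% and 29%. The WT count called lower was near the share of all genes, and the counts called higher were below that share in each line. In E1, 3 nuclear members were higher and 20 lower without replicate 2 of the DMSO group, and 1 and 30 without replicate 3. Under the same total, which moved the median of all tested genes in WT from 0.03 to -0.12, the WT split was 4 higher and 43 lower. In all 3 lines 17 subunits were called lower: 9 accessory and core subunits of complex I, 2 of complex II, 2 of complex III, 2 of complex IV and 2 of complex V. Another 16 were lower in F2 alone by this threshold, 3 in E1 alone and 0 in WT alone, without a test of the differences in each. The shares of all tested genes lower in all 3 lines or in 1 alone were not computed. These overlap counts therefore describe the subunits without a comparison to other genes.

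**Figure D3:**
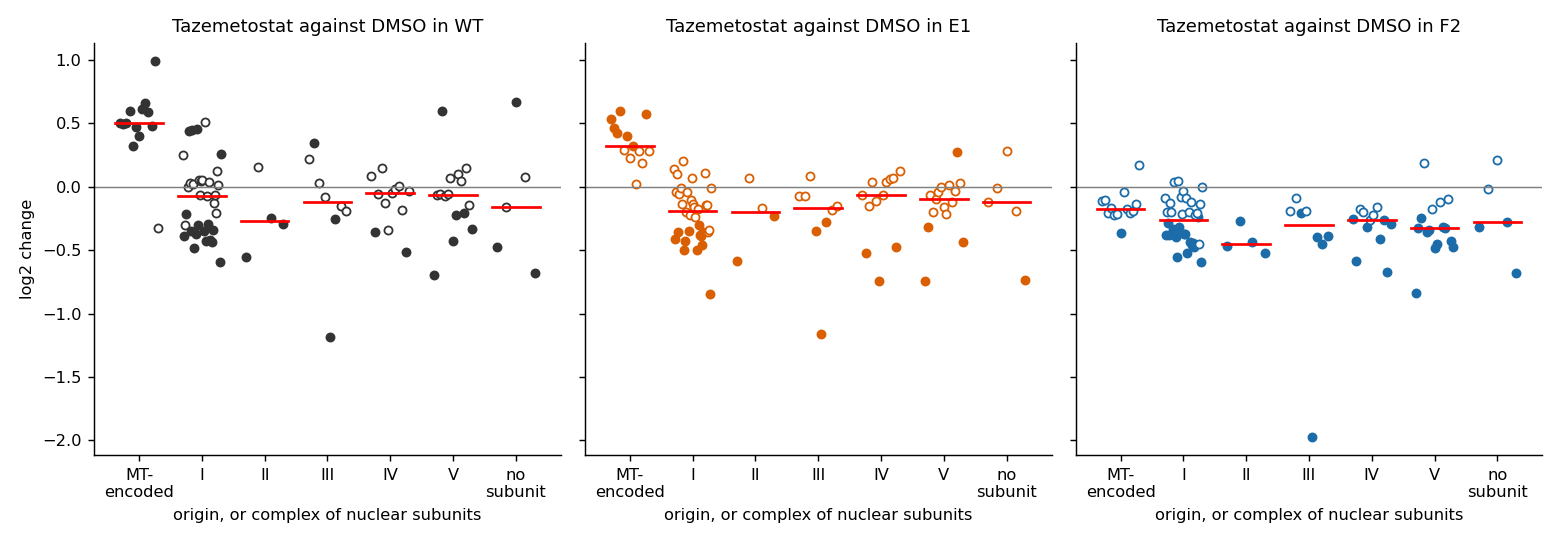
Log2 change under tazemetostat of every member by complex in WT, E1 and F2, with filled points for an adjusted p under 0.05 and a red line at the median of each class. The median of the mitochondrial members is 0.50 in WT and -0.18 in F2, and the medians of complexes I to V in F2 lie between -0.45 and -0.26.

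In complex I, 13 of the 34 nuclear subunits were called lower and 4 higher in WT, 12 and 0 in E1, and 17 and 0 in F2. Over all tested genes 29.4%, 19.7% and 23.2% were called lower in WT, E1 and F2, and 34.8%, 27.1% and 29% higher. Core subunits of the NADH-oxidizing end were among the subunits called lower. NDUFV1, which binds NADH and the flavin, went from 4666, 4561 and 4218 normalized counts to 2793, 3025 and 3076 in WT, a log2 change of -0.60 ± 0.10 (adjusted p = 3.69e-05). In E1 it went from 4897, 5585 and 3780 to 2665, 2579 and 2572 (-0.85, adjusted p = 7.7e-07), and in F2 from 4439, 4913 and 4265 to 3111, 2999 and 2915 (-0.59, adjusted p = 5.45e-05). No tazemetostat library reached its DMSO group in any line. NDUFS1, which carries iron-sulfur clusters along the electron path, and the core subunit NDUFS3 were called lower in all 3 lines, as were the accessory subunits NDUFA9, NDUFA10, NDUFB8, NDUFB11 and NDUFC1.

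Complex II, which also belongs to the citric acid cycle, had the fewest members. SDHA, its flavoprotein, went from 5538, 5572 and 5230 to 3737, 3779 and 3617 in WT (-0.55 ± 0.06, adjusted p = 1.7e-07). It went from 7052, 7419 and 6261 to 4554, 4675 and 4582 in E1 (-0.58, adjusted p = 1.28e-07) and from 5854, 6113 and 5561 to 4292, 4164 and 4185 in F2 (-0.47, adjusted p = 1.9e-06). SDHD, a membrane anchor, was called lower in all 3 lines, by 0.29, 0.23 and 0.52 on the log2 scale, and shares exon bases with TIMM8B. SDHC, the other anchor, was called in WT (-0.24) and F2 (-0.44). SDHB, the iron-sulfur subunit, was the exception: it stood at 2627, 2652 and 2406 with DMSO and 2997, 2828 and 2717 with tazemetostat in WT (0.15, adjusted p = 0.0805). It was at 0.07 in E1, and it fell in F2 from 2454, 2555 and 2238 to 2108, 1883 and 2010 (-0.27, adjusted p = 0.00485). All 4 subunits of complex II were thus called lower in F2, where 23.2% of all tested genes were.

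UQCRC2, a core protein of complex III, fell further than any other member in each line. Its normalized counts in WT were 24418, 24641 and 22811 with DMSO and 10977, 10928 and 9713 with tazemetostat, which is 44.0% of the DMSO mean (log2 change -1.19 ± 0.08, adjusted p = 2.62e-10). In E1 it went from 13929, 16532 and 16142 to 6314, 7579 and 6971, or 44.8% (-1.16, adjusted p = 4.92e-10). In F2 it went from 23929, 22598 and 20467 to 5697, 5715 and 5650, or 25.5% (-1.97, adjusted p = 1.45e-13). The groups did not come near each other in any line. The response of F2 differed from that of WT by -0.78 ± 0.11 (adjusted p = 5.12e-05), and that of E1 from that of F2 by 0.81 ± 0.11 (adjusted p = 6.04e-05). UQCRFS1, the Rieske iron-sulfur protein, was called lower in all 3 lines. Over the 8 subunits of complex III the medians of the 3 lines, WT, E1 and F2, were -0.12, -0.17 and -0.30.

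Complex IV had median changes of -0.05 in WT and -0.07 in E1, with 2 and 3 of its 12 nuclear subunits called lower and 0 higher. Over all tested genes 29.4% and 19.7% were called lower in these lines, and 34.8% and 27.1% higher. COX8A, with E2F and ETS letters in its promoter window, went from 2101, 2139 and 1850 to 1473, 1395 and 1380 in WT (-0.52 ± 0.10, adjusted p = 0.000204), and its changes in E1 and F2 were -0.47 and -0.67 (adjusted p = 0.000752 and 1.53e-05). COX5A was also called lower in all 3 lines. In F2, 7 were called lower, where 23.2% of all tested genes were. Among the 7 were COX4I1 (-0.25), COX6B1 (-0.32), COX7B (-0.41) and NDUFA4 (-0.30), none of which was called in WT or E1. COX7B, whose promoter bases are shown above, stood at 3566, 3564 and 3087 with DMSO and 2702, 2534 and 2428 with tazemetostat in F2. In WT it was 3302, 3393 and 3035, then 3420, 3413 and 2946, and the response of F2 differed from that of WT by -0.42 (adjusted p = 0.0446), or by -0.29 under the same total, which did not pass (adjusted p = 0.118). COX6B2, the form known from testis, was low in level and fell in E1 from 534, 511 and 535 to 398, 253 and 306 (-0.74, adjusted p = 0.0013). COX6A1, COX6C and COX7A2 were called in none of the lines.

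In complex V the α and β subunits of the catalytic head moved unequally. ATP5A1, the α subunit, went from 28999, 27917 and 24675 to 17281, 17080 and 15817 in WT (-0.70 ± 0.09, adjusted p = 1.14e-06). Its change was -0.74 in E1 (adjusted p = 8.43e-07) and -0.84 in F2 (adjusted p = 1.33e-07). ATP5B, the β subunit, stood at 24957, 25429 and 22041 with DMSO and at 24206, 23235 and 21902 with tazemetostat in WT, which overlapped, and was called lower in E1 and F2 at -0.32 in each. ATP5O, in the stalk, was called lower in all 3 lines. ATP5G1, ATP5G2 and ATP5G3 encode the same mature c subunit of the rotor: ATP5G2 was called lower in WT and F2 (-0.43 and -0.48), ATP5G3 also in WT and F2 (-0.22 and -0.46), and ATP5G1 in none. In F2, 11 of the 15 subunits were called lower, against 5 in WT and 3 in E1. Over all tested genes 23.2%, 29.4% and 19.7% were called lower in F2, WT and E1, so the WT and E1 counts were near the share of all genes.

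**Figure D4:**
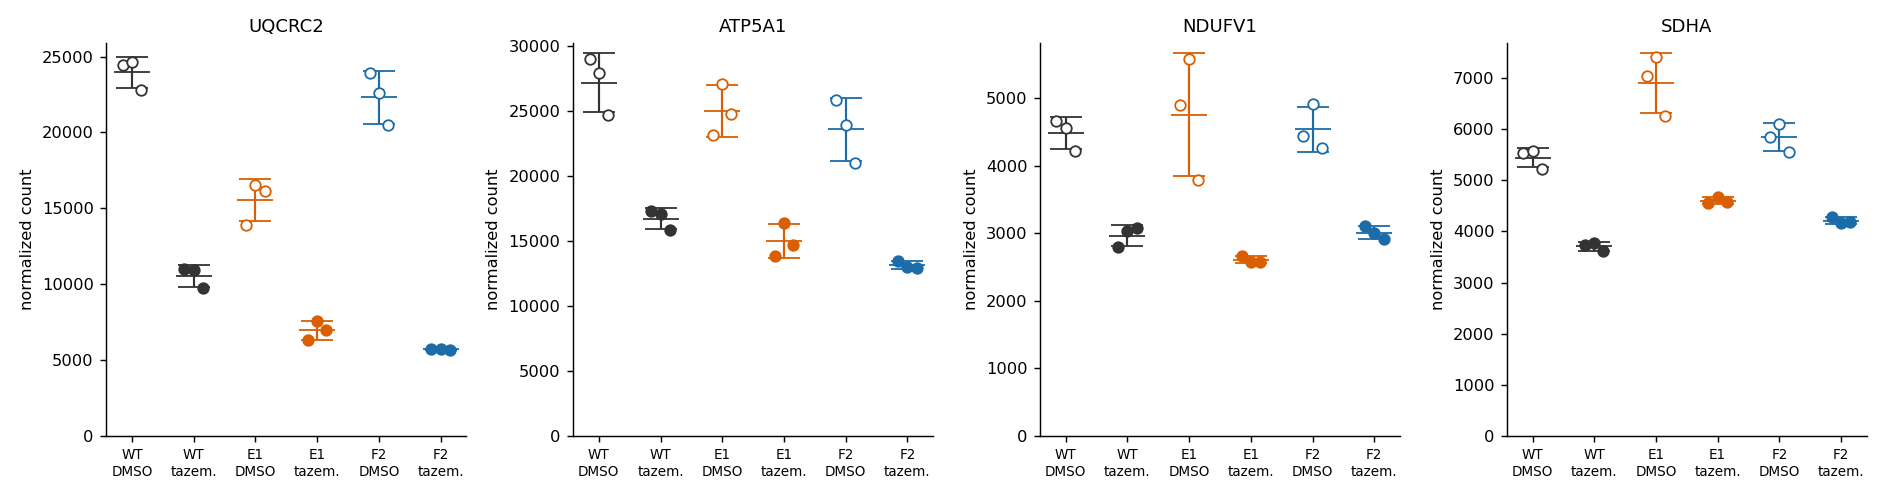
Normalized counts of UQCRC2, ATP5A1, NDUFV1 and SDHA in the 18 libraries, with open points for DMSO, filled points for tazemetostat and the mean ± SD of 3 libraries. The tazemetostat libraries of UQCRC2 lie between 5650 and 10977, all below its DMSO libraries.

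Few nuclear members rose, where 34.8%, 27.1% and 29% of all tested genes were called higher in WT, E1 and F2. Nearly all of these rises were in WT. The 7 were the pseudogene COX6A1P2 (0.67), ATP5D (0.60), NDUFB10 (0.45), NDUFA7 (0.45), NDUFA3 (0.44), UQCR11 (0.34) and NDUFV3 (0.26). NDUFB10, an accessory subunit of complex I, went in WT from 2636, 2728 and 2425 to 3464, 3762 and 3436 (adjusted p = 0.000266). In E1 it was 2386, 3182 and 2390, then 2403, 2680 and 2599, and in F2 2462, 2544 and 2244, then 2553, 2485 and 2448. Only the WT groups were apart. The response of E1 differed from that of WT by -0.49 (adjusted p = 0.00614) and the response of F2 by -0.41 (adjusted p = 0.0258). NDUFA3, another accessory subunit, differed by -0.50 and -0.56 in the same comparisons (adjusted p = 0.0228 and 0.0144). With every library scaled to the same total, NDUFA3 was called in neither comparison (adjusted p = 0.0569 and 0.0514), and NDUFB10 was called for E1 and not for F2 (adjusted p = 0.0132 and 0.0883). ATP5D, the δ subunit of the central stalk, and UQCR11, an accessory subunit of complex III, had adjusted p of 0.0378 and 0.0494 in WT. Under the same total, ATP5D, UQCR11 and NDUFV3, an accessory subunit of complex I, were not called, and the other 4 were. The single rise in E1 was ATP5J2, the f subunit of the membrane part, at 0.27 (adjusted p = 0.0127). Without replicate 2 of WT with tazemetostat, 4 nuclear members rose in WT.

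Over the nuclear members, the response of F2 less WT gave 0 higher and 7 lower, with a median of -0.18, and E1 less WT gave 1 and 5. Neither count is above the share of all genes called. Both depended on the scaling: with the same total, F2 less WT gave 1 higher and 2 lower, and E1 less WT 7 higher and 3 lower. Without replicate 3 of E1 with DMSO the second was 2 and 14. The calls of NDUFA8 and NDUFB10 in E1 less WT, and of UQCRC2, NDUFA3 and SDHB in F2 less WT, held whichever single library was left out, though not NDUFA3 under the same total. NDUFA8, an accessory subunit of complex I, stood at 2399, 2810 and 2515 in E1 with DMSO and 1700, 2025 and 1749 with tazemetostat, and at 2496, 2652 and 2275, then 2641, 2552 and 2341 in WT. Its response differed from that of WT by -0.52 ± 0.12 in E1 (adjusted p = 0.00212) and by -0.38 ± 0.12 in F2 (adjusted p = 0.0238). Under the same total the F2 difference was not called (adjusted p = 0.0715). For NDUFA8, E1 less F2 was not called either (-0.14, adjusted p = 0.486). E1 less F2 gave 6 nuclear members higher and 0 lower: UQCRC2, COX7B, ATP5L, NDUFA12, ATP5J2 and SDHB. That count ran from 2 to 11 as single libraries were left out.

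In DMSO few members were called between the clones and WT. In E1 against WT, 0 mitochondrial members were called, and 0 had an unadjusted p under 0.05, while 2 nuclear members were higher and 3 lower (23.2% of all genes called, 11.4% and 11.7%). UQCRC2 was lower, at 15534 ± 1404 against 23956 ± 998 (SD, n = 3; -0.63 ± 0.08, adjusted p = 1.15e-05), and SDHA was higher (0.34 ± 0.06, adjusted p = 0.000319). ATP5G2 and NDUFV3 had differences of -0.31 and 0.19. Without replicate 2 of E1 the nuclear split was 1 higher and 7 lower, and without replicate 3 it was 7 and 2.

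In F2 against WT with DMSO, 2 mitochondrial members were higher and 0 lower, and 0 nuclear members were higher and 4 lower (20.2% of all genes called, 8.1% and 12.1%). MT-CO2 and MT-CO3 were higher, by 0.43 and 0.37 (adjusted p = 0.0331 and 0.0448). NDUFA8 was lower by 0.39 on the log2 scale, at 2034, 1905 and 1738 against 2496, 2652 and 2275 (adjusted p = 0.00274), and ATP5B and NDUFS1 were lower by smaller amounts. With the replicate number as a block, which these groups share, 12 members were called in place of 6, with 6 mitochondrial members higher and 6 nuclear members lower. With TMM scaling 3 mitochondrial members were higher and 3 nuclear members lower. SDHA in F2 did not pass the test, and UQCRC2 did not either, so the DMSO difference in UQCRC2 was seen in 1 of the 2 clones. E1 against F2 itself gave UQCRC2 lower in E1 by 0.52 (adjusted p = 5.2e-05) and MT-CO2 lower by 0.51 (adjusted p = 0.00663). In that comparison 0 mitochondrial members were higher and 6 lower, and 11 nuclear members were higher and 5 lower (37.1% of all genes called, 19.4% and 17.7%). Without replicate 2 of E1 the mitochondrial split was 1 higher and 1 lower and the nuclear split 7 and 8, and without replicate 1 of E1 they were 0 and 3, and 17 and 2.

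With tazemetostat the clones differed more from WT. In F2, 8 mitochondrial members were lower and 0 higher than in WT, and 45 nuclear members were lower and 1 higher (53.1% of all genes called, 27.9% and 25.1%). UQCRC2 was lower by 0.89 on the log2 scale, NDUFA8 by 0.76, UQCR11 by 0.63, NDUFA1, an accessory subunit of complex I, by 0.58 and ATP5B by 0.53 (adjusted p from 4.88e-08 to 0.00144), and SDHA was the 1 nuclear member higher (0.18). Under the same total 5 mitochondrial members were lower and the nuclear split was 7 higher and 26 lower, while the median of all genes moved to 0.14. In E1 against WT, 1 mitochondrial member was higher, MT-ND6 (0.73, adjusted p = 0.021), and MT-ND3 and MT-ND5 were lower (-0.51 and -0.42, adjusted p = 4.07e-05 and 0.0148). Of the nuclear members 4 were higher and 15 lower (51.8% of all genes called, 25% and 26.9%), or 7 and 10 under the same total. The extremes were ATP5S at 0.42 and NDUFB7, an accessory subunit of complex I, at -0.72 (adjusted p = 0.000433 and 0.027). E1 against F2 gave 1 mitochondrial member higher and 0 lower, MT-ND2 at 0.39 (adjusted p = 0.00407), and 32 nuclear members higher and 2 lower (34.5% of all genes called, 17.9% and 16.6%). ATP5L, the g subunit of ATP synthase, was highest, at 0.53 (adjusted p = 4.41e-05). Without replicate 2 of E1 with tazemetostat, 14 nuclear members were called higher in place of 32.

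Across the 18 libraries the mitochondrial members moved with each other. The correlation of each with the mean of the other 12 was 0.86 to 0.97 for 10 of them, and it was 0.80 for MT-ND2, 0.55 for MT-ND3 and 0.09 for MT-ND6. Among the nuclear members the median of this correlation was 0.75, and it was lowest for NDUFA7 (-0.14), ATP5D (-0.06) and ATP5J2 (-0.01). These libraries share depth, line and treatment, so the values are descriptions. GC content of the subunits went with some of the differences: over the 73 nuclear subunits, r with the tazemetostat change was 0.20 (WT), -0.22 (E1) and 0.18 (F2). It was -0.51 for E1 less WT, -0.50 for E1 less F2 and -0.63 for E1 against F2 with tazemetostat, against -0.20, -0.16 and -0.21 over all tested genes that had a GC value. The part of GC content in these differences was not tested.

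The other genes of the pathway were described by list, beside 34.8%, 27.1% and 29% of all tested genes called higher and 29.4%, 19.7% and 23.2% called lower in WT, E1 and F2. Of 6 subunit genes that the name rule does not reach, 1 was higher and 2 lower in WT, 0 and 2 in E1, and 0 and 3 in F2. ATPIF1, the inhibitor of ATP hydrolysis by complex V, changed by -0.04 in WT without passing the test and fell by 0.38 in E1 and by 0.53 in F2. CYC1 and CYCS, the cytochromes c1 and c, were called in none. Complex I assembly factors had 2 higher and 8 lower of 17 in WT, 2 and 7 in E1, and 1 and 10 in F2, and medians of -0.23, -0.14 and -0.32. ECSIT fell in all 3 lines, by 0.61, 0.64 and 0.61, while NDUFAF4 rose by 0.56, 0.47 and 0.67. Of 33 assembly factors for complexes II to V, 4 were higher and 12 lower in WT, 2 and 9 in E1, and 0 and 14 in F2. ATPAF1, which helps to build the head of ATP synthase, fell by 1.18, 0.90 and 0.95, and COX15, which makes the heme of complex IV, by 0.58, 0.70 and 0.55.

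Of 17 genes that keep and transcribe mitochondrial DNA, 2 were called higher and 11 lower in WT, with a median of -0.32. E1 had 0 higher and 7 lower, and F2 had 1 and 5. The share lower was 64.7% in WT and 41.2% in E1, and the 29.4% in F2 was near that of all genes. TFAM, which packages mitochondrial DNA and starts its transcription, fell by 0.45 in WT and was at -0.01 in E1 and -0.19 in F2 without passing the test. POLRMT, the mitochondrial RNA polymerase, was called in none (0.17, -0.35 and 0.00). LONP1, a matrix protease, fell by 0.68, 0.82 and 0.41. Of 18 genes for mitochondrial RNA processing and stability, 1 was higher and 9 lower in WT, 1 and 10 in E1, and 1 and 8 in F2. LRPPRC, which keeps mitochondrial messengers stable, fell by 0.54, 0.60 and 0.65. REXO2, an exonuclease for short RNA, rose by 0.35, 0.26 and 0.24. SUPV3L1, the helicase of the mitochondrial RNA degradosome, was at -0.09 in WT and fell by 0.65 in E1 and by 0.44 in F2.

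Regulators of mitochondrial biogenesis were mixed, with 4 higher and 3 lower of 9 in WT, 5 and 1 in E1, and 3 and 2 in F2. PPARGC1A, which encodes the coactivator PGC-1α, went in WT from 2.6, 0.9 and 0.9 normalized counts to 150.8, 166.5 and 140.4 (adjusted p = 1.2e-08). In F2 it went from 1.0, 0.0 and 4.9 to 102.9, 94.9 and 102.7 (adjusted p = 5.53e-08). In E1 it stayed near 0 reads, at 3.6, 0.0 and 1.0 with DMSO and 2.1, 1.9 and 0.9 with tazemetostat (adjusted p = 0.651), and the response of E1 differed from that of WT (adjusted p = 1.29e-05). NRF1, the factor whose letters were searched above, was lower under tazemetostat in every line, with log2 changes of -0.60, -0.18 and -0.22 (adjusted p = 7.33e-08, 0.0192 and 0.00617). Of 14 subunits with its letters in the promoter window, 3 were called higher and 6 lower in WT, 0 and 6 in E1, and 0 and 8 in F2. Of the 46 with a window and without the letters, 2 were higher and 16 lower in WT, 0 and 14 in E1, and 0 and 29 in F2. MYC rose by 0.45, 0.72 and 0.58, and ESRRA, which encodes the estrogen-related receptor α, rose in WT (0.49) and was at -0.05 and 0.26 in E1 and F2.

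**Figure D5:**
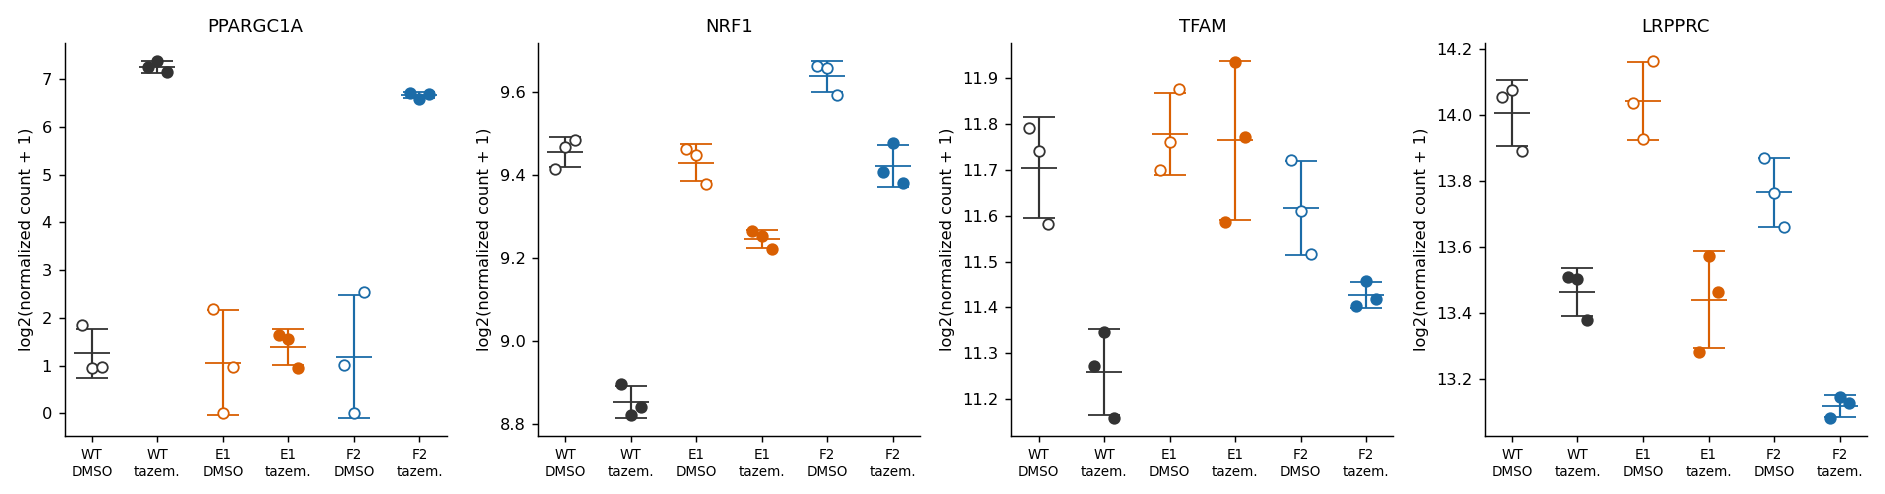
Log2(normalized count + 1) of PPARGC1A, NRF1, TFAM and LRPPRC in the 18 libraries, with open points for DMSO, filled points for tazemetostat and the mean ± SD of 3 libraries. PPARGC1A is high in the tazemetostat libraries of WT (140.4 to 166.5 normalized counts) and F2 (94.9 to 102.9) and near 0 in those of E1.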

How the data were processed

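RNA of 18 cultures was measured as stranded, paired-end poly(A) libraries. Per the submitters' processing notes, reads were handled with Trim Galore 0.4.4, STAR 2.6.0a, HTSeq and DESeq2 on hg19. The annotation and the strand setting are not given in the sources used here. The deposited signal is a table of counts divided by a size factor per library: 100% of the values came out whole (tolerance 0.01) once each library's factor was recovered from its low values, and the totals above are these recovered reads. One replicate (F2 with tazemetostat, replicate 2) has a factor of 0.991.

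Values were tested as log2(value + 1) with limma 3.58.1 (R 4.3.3, eBayes with trend) over all genes with a mean of at least 10, in 1 fit of 6 group means with Benjamini-Hochberg adjustment, and a call was an adjusted p under 0.05. Fold changes are on that scale, which understates the changes of low genes. The SE pools the spread of all 6 groups, so for a comparison of 2 groups it is the same in every line and is not the spread of that line. The test gave 12 contrasts. edgeR 4.0.16 (quasi-likelihood test) and DESeq2 1.42.0 on the recovered reads, TMM, 2 scalings to the same total (of all reads, and of reads outside MT- genes), a pseudocount of 5, a mean minimum of 1, a fold limit and single libraries left out were the alternatives. The scripts were tested on simulated data. Figures and tables were made with Python 3.11.15, pandas 2.3.3, numpy 2.4.6 and matplotlib 3.10.9.

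Samples with the same replicate number in F2 and WT with DMSO deviated together (lowest correlation of a pair 0.11, mean 0.22), so the blocked count is given there. No 2 replicates agreed within counting noise. Exon lengths, GC content and overlaps came from GENCODE v29 and promoters from RefSeq, both on GRCh38, and were joined by gene name only. PECAM1, 1 of the 8 markers, was not analysed here. The members and lists were chosen with earlier results of these data known. Named genes are all mitochondrial members, the 3 largest called rises and falls among nuclear members in each contrast, the isoform sets and the genes of the regulator, mitochondrial DNA, RNA processing and extra subunit lists. Other members and list genes were named after their values were seen. One nuclear member is counted but not reported by name here.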

Additional observations from a re-analysis of the deposited data

Results flagged for a closer look

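The response to tazemetostat differed between lines in the interaction test for the results below, on the log2 scale. The clones share the WT libraries, and E1 and F2 each appear in 2 of the 3 comparisons.

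For E1 less WT, 1 mitochondrial member was lower, and 1 nuclear member was higher and 5 lower, where 35.4% of all genes were called. These counts are below that share, and the same total gave 7 nuclear members higher and 3 lower. MT-ND3 differed by -0.64, NDUFA8 by -0.52, NDUFA3 by -0.50, NDUFB10 by -0.49 and ATP5S by 0.35, of which NDUFA3 was not called under the same total. MT-ND3 departed from the other mitochondrial genes here, since in E1 it had no change while MT-CO2 rose by 0.60.

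For F2 less WT, 12 mitochondrial and 7 nuclear members were lower, where 13.2% of all genes were called lower. The nuclear count is below that share, and the same total left 2. The complex I genes differed by -0.76 (MT-ND1), -0.66 (MT-ND2), -0.83 (MT-ND3), -0.80 (MT-ND4), -0.67 (MT-ND4L) and -1.13 (MT-ND5). MT-CYB of complex III differed by -0.69. In complex IV the differences were -0.71 (MT-CO1), -0.76 (MT-CO2) and -0.55 (MT-CO3), and in complex V -0.61 (MT-ATP6) and -0.60 (MT-ATP8). Among the nuclear members UQCRC2 differed by -0.78, NDUFA3 by -0.56, SDHB by -0.42, COX7B by -0.42 and NDUFA8 by -0.38. Under the same total NDUFA3, COX7B and NDUFA8 were not called.

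For E1 less F2, 6 mitochondrial and 6 nuclear members were higher, where 6.16% of all genes were called higher, so that the nuclear count is near the share of all genes. MT-ATP6 differed by 0.64, MT-ATP8 by 0.57, MT-CO2 by 0.76, MT-CYB by 0.62, MT-ND1 by 0.59 and MT-ND5 by 0.71. UQCRC2 differed by 0.81, COX7B by 0.47, ATP5L by 0.45 and SDHB by 0.34. The spread of the E1 libraries, in DMSO and with tazemetostat, enters each of these values.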

How the results depend on the processing

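No call changed direction under any alternative run. The median change of mitochondrial less nuclear members crossed 0 with single libraries left out in both comparisons of E1 with WT, in F2 against WT and E1 against F2 with tazemetostat, and in E1 less WT. Of 159 single-gene calls, edgeR, the replicate block and a pseudocount of 5 kept all, DESeq2 lost 1, TMM 2, a mean minimum of 1 9, the same total 23, the same total outside MT- genes 16, a fit on only the compared groups 27 and a log2 limit of 1 155. With single libraries left out, 214 of 1140 refitted calls were lost. With the log2 limit, 1 member was called in each line under tazemetostat and 1 in F2 less WT, and 0 in the other comparisons, which the limit itself brings about. In the fit on only the compared groups, 21 members were called for tazemetostat in E1 (32 in the full fit), 2 for each clone against WT in DMSO (5 for E1 and 6 for F2), 32 for F2 less WT (19), 4 for E1 against F2 in DMSO (22), 61 with tazemetostat (35) and 4 for E1 less F2 (12). For F2 against WT in DMSO, edgeR called 10, DESeq2 12 and the fit with a replicate block 12. A mean minimum of 1 called 3 for E1 against WT in DMSO. The same total called 11 for E1 less WT (12 outside MT- genes, against 7) and 12 for F2 less WT. The nuclear splits outside MT- genes were 5 higher and 41 lower for tazemetostat in WT, 2 and 5 for E1 against WT and 9 and 7 for E1 against F2 in DMSO, and 7 and 4 for E1 less WT. The cause was not tested.

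With single libraries left out, members called ran from 36 to 44 for tazemetostat in WT (46 with all), 25 to 42 in E1, 36 to 55 in F2, 2 to 9 (E1) and 2 to 10 (F2) for the clones against WT in DMSO, 14 to 19 and 48 to 55 with tazemetostat, 4 to 17 for E1 less WT, 11 to 26 for F2 less WT, 11 to 23 for E1 against F2 in DMSO, 18 to 41 with tazemetostat and 4 to 24 for E1 less F2. The median change of mitochondrial less nuclear members ran from 0.45 to 0.66 for tazemetostat in WT, 0.29 to 0.72 in E1, 0.10 to 0.17 in F2, -0.13 to 0.28 (E1) and 0.27 to 0.43 (F2) for the clones against WT in DMSO, -0.15 to 0.06 and -0.21 to 0.0045 with tazemetostat, -0.28 to 0.12 for E1 less WT, -0.58 to -0.39 for F2 less WT, -0.53 to -0.16 for E1 against F2 in DMSO, -0.10 to 0.22 with tazemetostat and 0.18 to 0.60 for E1 less F2. Read depth limits PPARGC1A in DMSO, where its libraries held a few reads at most. The replicate block moved no other count of all members called in a comparison by over 1.5 times, though counts for parts of the set moved more. For E1 against F2 with tazemetostat it also called MT-CO1, MT-ND5 and MT-ND6 higher, where MT-ND2 alone was called without it. For F2 less WT it also called ATP5I, ATP5L, COX4I1 and UQCR10 lower.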

Other observations

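The counts below stand beside 34.8%, 27.1% and 29% of all tested genes called higher in WT, E1 and F2 and 29.4%, 19.7% and 23.2% called lower. Of 18 genes of the citric acid cycle and pyruvate dehydrogenase, 4 were called higher and 11 lower in WT under tazemetostat, 1 and 11 in E1, and 0 and 10 in F2. DLST, of the 2-oxoglutarate dehydrogenase complex, had log2 changes of -0.82, -0.87 and -0.74 in WT, E1 and F2, and FH, fumarase, of -1.05, -0.42 and -0.63. Of 18 glycolysis genes, 6 were higher and 2 lower in WT, 3 and 4 in E1, and 5 and 3 in F2. SLC2A1, a glucose transporter, rose by 1.1, 0.65 and 0.57, and HK2, a hexokinase, by 0.81, 0.69 and 1.07, while LDHB changed by -0.77, -0.27 and -0.41. Of 9 hypoxia target genes measured, 5 were higher and 1 lower in WT, 3 and 3 in E1, and 3 and 2 in F2, and PDK1, which switches off pyruvate dehydrogenase, changed by -1.43, -0.59 and -0.70.

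Of 73 mitochondrial ribosomal proteins measured, 11 were higher and 33 lower in WT, 7 and 20 in E1, and 4 and 24 in F2, with medians of -0.16, -0.16 and -0.12. Of 17 genes for mitochondrial import, channels and chaperones, 2 were higher and 8 lower in WT, 0 and 4 in E1, and 0 and 7 in F2. SLC25A5, an ADP/ATP carrier, changed by -0.73, -0.45 and -0.56. The ribosomal RNAs of the mitochondrion, which the poly(A) step can keep in part, took 0.694% of reads in WT with DMSO and 0.996% with tazemetostat, 0.771% and 0.723% in E1, and 0.698% and 0.586% in F2. MT-RNR2, the large one, rose by 0.76 in WT and was at 0.02 in E1 and -0.22 in F2, and its response differed from that of WT by -0.74 (E1) and -0.98 (F2). MT-RNR1 was called in none of the lines.

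Rows named as nuclear copies of mitochondrial subunit genes numbered 175, 5 of them tested, and held 0.15% as many reads as the mitochondrial members. Of these 5, 3 were higher in WT and 2 in E1, and reads of a copy and of its mitochondrial source may not be separable. Copies under other names would not be among these rows. Over the 18 libraries the genes with the highest correlation with the mean of the mitochondrial members were the copies MTND4P12 (r = 0.96) and MTND5P11 (0.92), then SYDE2 (0.91), RP1-20C7.6 (0.85) and RP5-857K21.11 (0.84). For the mean of the nuclear members they were TRAPPC2L (0.97), TIMM8B (0.95), PSMA7 (0.94), HMGN4 (0.94) and PFN2 (0.93). The libraries share line, treatment and depth, so these values are descriptions. Whether RP1-20C7.6 and RP5-857K21.11, which carry clone names, are nuclear copies was not checked. The latter had a mean of 31978 normalized counts, against 1687 for MTND4P12.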
